A study of Mus musculus with 23 samples.

Results

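9 genes of the complement system were described in RNA sequenced from CD11b+ cells of mouse hippocampus: the 3 chains of C1q (C1qa, C1qb, C1qc), the components C3 and C4b, the anaphylatoxin receptors C3ar1 and C5ar1, and the integrin chains Itgam and Itgb2. They were taken by gene symbol from a table of 18876 genes, and all 9 were found and passed the filter on low counts. The samples were microglia, by label, of female mice that all carried floxed Slc11a2, the gene of the iron transporter DMT1, on both alleles and 1 allele of an inducible Cre recombinase driven by Cx3cr1, on a mixed 129S and C57BL/6J background. Mice were either WT or hemizygous for APP/PS1, transgenes that cause amyloid deposition in the brain. Mice labelled Slc11a2KD had received 4 mg of tamoxifen by gavage daily for 5 days at 5 to 6 months of age, Control mice had received corn oil, and cells were isolated at 15 to 18 months. The groups were Control WT (n = 6), Control APP/PS1 (n = 7, of which 6 were used), Slc11a2KD WT (n = 5) and Slc11a2KD APP/PS1 (n = 5).

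C1q is the recognition molecule of the classical pathway. It is built from 3 homologous chains, and microglia are its main source in the brain. Bound C1q activates proteases that cleave C4 and then C3. Fragments of C3 left on a surface are bound by complement receptor 3, which consists of CD11b (Itgam) and CD18 (Itgb2) and drives phagocytosis, including that of synapses. The small fragments C3a and C5a signal through the receptors C3ar1 and C5ar1.

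The C1q genes lie next to each other on the minus strand of mouse chromosome 4 (GRCm39), C1qb at 136606009 to 136613511, C1qc at 136616466 to 136620376 and C1qa at 136623223 to 136626161. Each canonical transcript has 3 exons. C3 (57510964 to 57535155) and C4b (34947354 to 34962912) lie on chromosome 17, C3ar1 on chromosome 6 (122823393 to 122833122), C5ar1 (15980668 to 15993465) and Itgam (127661808 to 127717753) on chromosome 7, and Itgb2 on chromosome 10 (77366086 to 77401542). The 200 bases upstream of the canonical start sites are shown for the C1q chains, which share a locus and were abundant in every sample, and for C3ar1, the member with the largest rise. They are written 5′ to 3′ on the strand of the gene. Capitals mark GAGGAA, the core that the myeloid transcription factor PU.1 recognizes, or its reverse complement.
C1qa (chr4:136626162-136626361): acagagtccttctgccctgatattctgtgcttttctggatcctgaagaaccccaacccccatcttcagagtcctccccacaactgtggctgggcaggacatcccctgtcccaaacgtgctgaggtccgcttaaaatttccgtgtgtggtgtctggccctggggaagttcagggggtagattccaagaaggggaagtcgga
C1qb (chr4:136613512-136613711): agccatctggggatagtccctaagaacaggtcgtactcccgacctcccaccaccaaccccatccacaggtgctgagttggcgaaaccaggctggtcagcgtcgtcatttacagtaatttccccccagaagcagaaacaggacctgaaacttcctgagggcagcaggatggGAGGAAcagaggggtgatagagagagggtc
C1qc (chr4:136620377-136620576): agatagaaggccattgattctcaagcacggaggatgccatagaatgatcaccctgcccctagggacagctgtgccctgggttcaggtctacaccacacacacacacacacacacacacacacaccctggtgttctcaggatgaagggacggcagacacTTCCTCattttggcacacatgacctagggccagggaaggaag
C3ar1 (chr6:122833123-122833322): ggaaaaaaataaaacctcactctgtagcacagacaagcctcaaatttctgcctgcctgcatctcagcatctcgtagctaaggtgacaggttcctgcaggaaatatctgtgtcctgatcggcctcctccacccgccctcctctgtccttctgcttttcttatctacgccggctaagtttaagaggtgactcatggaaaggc
GAGGAA was found on either strand in this window of 3 of the 9 members, C1qb, C1qc and Itgam, and in 18.8% of 21770 promoters of the same length. TGANTCA, the motif of AP-1, was found in C3ar1 among the members and in 4.9% of promoters, and CACGTG, an E-box, in C4b and Itgb2 and in 5.4%. The motifs of interferon regulatory factors and of NF-kappaB were found in 0 of the 9 members and in 2.4% and 1.3% of promoters. Each motif was searched on both strands, and a match is a description of the letters only.

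Total counts ran from 31128643 to 54872491 per sample. Control APP/PS1 0010 was left out, and 22 samples were compared. The gene total of Slc11a2 was not lower in the samples labelled Slc11a2KD, with 27.1 to 38.1 CPM in Slc11a2KD WT against 29.9 to 43.7 CPM in Control WT, and 37.8 to 75.1 CPM in Slc11a2KD APP/PS1 against 40.0 to 48.2 CPM in Control APP/PS1. Only a part of the gene is deleted in this model and the deposited counts give 1 total per gene, so a total that includes the remaining exons does not check the label. The study checked the deleted exons themselves, by RT-qPCR and by read coverage, which the gene totals used here cannot repeat. All directions below follow the labels. Summed levels of 7 microglial markers were at least 26769 CPM in each of the 22 samples, and oligodendrocyte markers were at 365 to 3638 CPM. Markers of choroid plexus reached 988 and 1920 CPM in Control WT 0015 and 0012 against at most 5.34 CPM in the other 4 Control WT samples. A length slope was fitted in each sample, with each gene's log2 CPM taken relative to its mean over the 23 samples. Its slope on log2 exon length, a measure of how well long transcripts were recovered relative to the other samples, also differed. It was between 0.127 and 0.246 in library numbers 1 to 4, and between -0.376 and -0.0359 in library numbers 18 to 23. All of these libraries were from mice labelled Slc11a2KD, so library number and knockdown cannot be told apart. Genotype was also unbalanced between these runs. Library numbers 1 to 4 were Slc11a2KD WT 0001, 0002 and 0003 and Slc11a2KD APP/PS1 0004. Library numbers 18 to 23 were Slc11a2KD WT 0019 and 0022 and Slc11a2KD APP/PS1 0018, 0020, 0021 and 0023. Fits within library numbers 18 to 23 compared only the latter samples. The sample labels name no animals, and the study describes the samples of a group as biological replicates from separate mice.

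C1q was abundant and was not higher in APP/PS1. Together the 3 chains took 1.46% to 1.96% of all counts in Control WT, with a median of 1.67%, and 1.20% to 1.60% in Control APP/PS1, with a median of 1.30%. The shares were 1.49% to 1.67% in Slc11a2KD WT and 1.27% to 1.52% in Slc11a2KD APP/PS1. The mean share was 0.35 percentage points lower in Control APP/PS1 than in Control WT (exact permutation test, two-sided, p = 0.00866, adjusted p = 0.0519 over 12 tests) and 0.26 points lower in Slc11a2KD APP/PS1 than in Slc11a2KD WT (p = 0.0159, adjusted p = 0.0635, exact permutation test). Neither passed the adjusted threshold over all 22 samples. Both passed it when Control APP/PS1 0016 was left out (adjusted p = 0.026 and 0.0476) or when Slc11a2KD APP/PS1 0004 was left out (adjusted p = 0.026 for both, exact permutation tests). The difference was then -0.40 points in Control without 0016 and -0.31 points in Slc11a2KD without 0004. All 12 tests were adjusted together, so a sample left out of 1 comparison also moved the adjusted p of the other. Per kb of canonical transcript, the chains ranked C1qa, C1qc and C1qb in all 4 groups, with 6371, 2598 and 1265 CPM per kb as means over the 22 samples. The order was the same per kb of all annotated exons, with 4301, 1682 and 513 CPM per kb. The other members followed at 197 CPM per kb of canonical transcript for Itgb2, 86.9 for C3ar1, 62.4 for Itgam, 30.7 for C5ar1, 5.40 for C4b and 0.655 for C3. C3ar1 and Itgam did not keep this order, with means of 63.8 and 82.3 CPM per kb in Control WT and 116 and 52.4 CPM per kb in Control APP/PS1. The level of Itgam may be too low, since 67.4% of its exon bases are shared with another gene model in GENCODE M39, as described below.

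The summed microglial markers were also lower in APP/PS1, at 26769 to 30832 CPM against 35578 to 40828 CPM in Control and at 29748 to 33509 CPM against 36485 to 41163 CPM in Slc11a2KD. Neither pair of ranges overlapped, and the part of this difference in the lower levels of C1q was not tested.

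C1qb fell in APP/PS1. In Control WT it was 3416 CPM in the lowest sample, 3584 CPM at the median and 4193 CPM in the highest, against 2345, 2815 and 3590 CPM in Control APP/PS1. In Slc11a2KD WT the samples were at 3322, 3396, 3508, 3565 and 3801 CPM, and in Slc11a2KD APP/PS1 at 2350, 2520, 2550, 2768 and 3284 CPM. The Control ranges overlapped, with 1 Control APP/PS1 sample, 0016, as high as the middle of the Control WT range, and the Slc11a2KD ranges did not overlap. The log2 fold change was -0.37 (standard error, SE, 0.11, adjusted p = 0.022, edgeR) in Control and -0.38 (SE 0.12, adjusted p = 0.0243, edgeR) in Slc11a2KD. The call in Control was lost when 0007, 0011, 0013 or 0014 was left out (largest adjusted p = 0.0658), and the log2 fold change then stayed between -0.45 and -0.32 over all samples left out in turn. The call in Slc11a2KD was lost without 0020, 0021, 0023 or 0001 (largest adjusted p = 0.0703). Within library numbers 18 to 23 the log2 fold change was -0.44 with an adjusted p of 0.236 (edgeR). With library numbers 18 to 23 as a covariate it was -0.32 (adjusted p = 0.0728, edgeR).

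C1qa and C1qc did not pass the test in either comparison. C1qa was 6270 CPM in the lowest, 7257 CPM at the median and 9090 CPM in the highest Control WT sample, and 5359, 6065 and 7735 CPM in Control APP/PS1. It was 5913, 6120, 6794, 7763 and 8953 CPM in Slc11a2KD WT and 6391, 6579, 6675, 6853 and 7643 CPM in Slc11a2KD APP/PS1. Ranges overlapped in both comparisons. The log2 fold change of C1qa was -0.25 (SE 0.12, adjusted p = 0.193, edgeR) in Control and -0.06 (SE 0.13, adjusted p = 0.816, edgeR) in Slc11a2KD. C1qc was 4214, 4839 and 6023 CPM at the lowest, median and highest in Control WT and 3978, 4318 and 5083 CPM in Control APP/PS1. It was 4296, 4361, 4970, 5200 and 5608 CPM in Slc11a2KD WT and 4583, 4731, 4888, 4948 and 5709 CPM in Slc11a2KD APP/PS1. Its log2 fold change was -0.17 (SE 0.10, adjusted p = 0.332, edgeR) in Control and 0.02 (SE 0.11, adjusted p = 0.918, edgeR) in Slc11a2KD. With an offset for exon length and GC content, an alternative chosen after the data were seen, C1qa passed the test in both comparisons, at -0.43 in Control (adjusted p = 0.00307, edgeR) and -0.43 in Slc11a2KD (adjusted p = 0.00549, edgeR). C1qc then passed in Control at -0.28 (adjusted p = 0.022, edgeR) and in Slc11a2KD did not, at -0.21 (adjusted p = 0.0997, edgeR), opposite in sign to the value above. With libraries scaled by total counts in place of TMM, C1qa was -0.33 (adjusted p = 0.0256, edgeR) and C1qc -0.25 (adjusted p = 0.0444, edgeR) in Control, past the threshold, and C1qc was -0.14 in Slc11a2KD (adjusted p = 0.276, edgeR). C1qa also passed in Control with limma voom (-0.27, adjusted p = 0.038).

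The ratios of the 3 chains to each other were compared within samples. Counts of C1qb per count of C1qc were 0.696 to 0.834 in Control WT, 0.589 to 0.714 in Control APP/PS1, 0.636 to 0.805 in Slc11a2KD WT and 0.412 to 0.694 in Slc11a2KD APP/PS1. Control APP/PS1 lay lower than Control WT by 0.22 on the log2 scale (difference -0.22, exact permutation test, two-sided, p = 0.00866, adjusted p = 0.0519 over 12 tests). Slc11a2KD APP/PS1 lay lower than Slc11a2KD WT (difference -0.42, exact permutation p = 0.0317, adjusted p = 0.0952). Counts of C1qa per count of C1qc were 1.47 to 1.53 in Control WT and 1.34 to 1.52 in Control APP/PS1 (difference -0.08, exact permutation p = 0.0476, adjusted p = 0.114). They were 1.356 to 1.60 in Slc11a2KD WT and 1.34 to 1.45 in Slc11a2KD APP/PS1. None of the 12 tests passed the adjusted threshold over the 22 samples. The ratio of C1qa to C1qc passed in Control without 0016 (difference -0.10, adjusted p = 0.0346, exact permutation test). The ratio of C1qb to C1qc passed in Control without 0016 or 0004 (adjusted p = 0.026 for either) and in Slc11a2KD without 0004 (difference -0.51, adjusted p = 0.026, exact permutation tests). Without 0004 it also passed in Slc11a2KD APP/PS1 against Control APP/PS1 (difference -0.34, adjusted p = 0.0343, exact permutation test). The ratio of C1qb to C1qc was lowest in the samples with the lowest length slope, 0.412 in 0021 and 0.509 in 0023, and the part of that slope in the difference was not tested. Around the group means, C1qa and C1qc correlated at r = 0.946 over the 22 samples, and C1qb correlated with C1qa at r = 0.481 and with C1qc at r = 0.413. These correlations are descriptions, since the samples share depth and length slope with every gene.

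**Figure D1:**
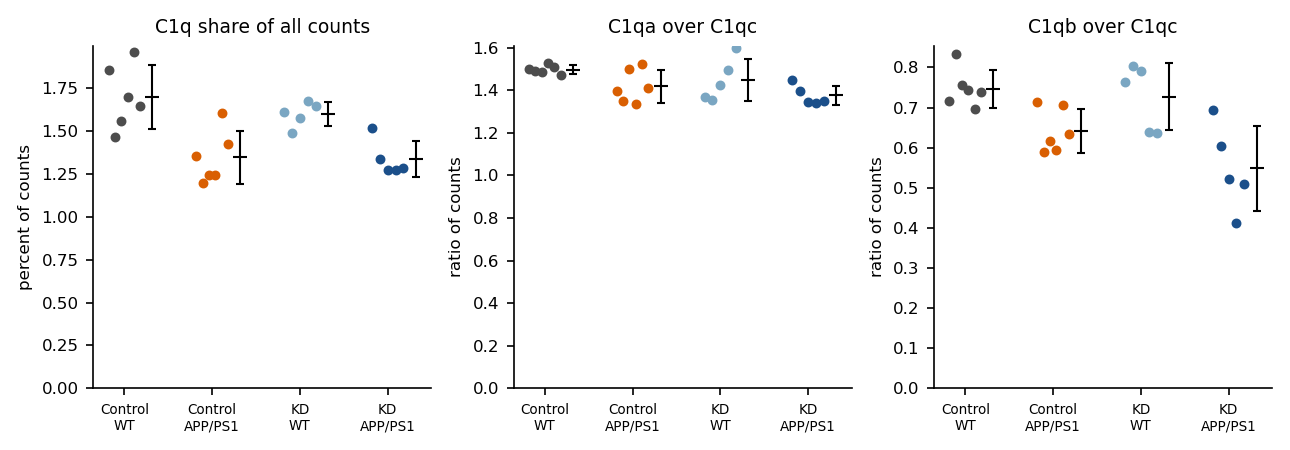
C1q share of all counts (percent, left), counts of C1qa per count of C1qc (middle) and counts of C1qb per count of C1qc (right) in the 22 samples, 1 point per sample, with the mean and SD of each group beside the points. C1qb per C1qc reached down to 0.412 in Slc11a2KD (KD) APP/PS1 and did not go below 0.696 in Control WT.

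C3 was scarce in these cells, and C4b was lower in Slc11a2KD APP/PS1. C3, whose cleavage is the central step of all complement pathways, had a mean of 3.38 CPM over the 22 samples. It was 0 to 5.76 CPM in Control WT, with a median of 5.20 CPM, and 0.898 to 8.74 CPM in Control APP/PS1, with a median of 4.84 CPM. The sample at 0 was Control WT 0015, in which a count of 0 allows up to 3 reads. In Slc11a2KD WT it was 0.523, 1.17, 1.24, 1.55 and 3.49 CPM, and in Slc11a2KD APP/PS1 0.333, 1.58, 1.99, 3.93 and 5.22 CPM. The groups overlapped throughout. Log2 fold changes for APP/PS1 were 0.40 (SE 0.71, adjusted p = 0.814, edgeR) in Control and 0.72 (SE 0.79, adjusted p = 0.593, edgeR) in Slc11a2KD, so a change of several-fold in either direction was not detectable.

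C4b, the other component cleaved on the way to C3, had 21.3, 30.2 and 65.9 CPM at the lowest, median and highest in Control WT and 13.99, 23.7 and 31.2 CPM in Control APP/PS1. The log2 fold change was -0.54 (SE 0.34, adjusted p = 0.359, edgeR), and -0.65 to -0.25 with each sample left out (adjusted p up to 0.738, edgeR). C4b was 15.6, 34.1, 44.5, 45.4 and 62.5 CPM in Slc11a2KD WT and 7.72, 14.9, 14.9, 18.6 and 36.5 CPM in Slc11a2KD APP/PS1. Here it fell, with a log2 fold change of -1.12 (SE 0.37, adjusted p = 0.0411, edgeR), although 0022 among the WT samples lay with the low APP/PS1 samples and 0004 among the APP/PS1 samples lay with the high WT samples. The call was lost without any 1 of the other 8 Slc11a2KD samples (largest adjusted p = 0.131, edgeR), and within library numbers 18 to 23 the log2 fold change was -1.09 (adjusted p = 0.287, edgeR). With library numbers 18 to 23 as a covariate the call was lost as well. Within the groups, C4b correlated with the length slope at r = 0.638 over 22 samples, and the part of the slope in this result was not tested. Of 5286 windows of 150 bases along the C4b transcript, 8.17% were shared with the near copy C4a, and reads there may have been left uncounted.

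C3ar1, the receptor of C3a, rose in APP/PS1 with no overlap between groups in either comparison. It was 283, 315 and 381 CPM at the lowest, median and highest in Control WT, against 474, 585 and 651 CPM in Control APP/PS1. It was 261, 277, 281, 286 and 322 CPM in Slc11a2KD WT, against 451, 473, 569, 595 and 663 CPM in Slc11a2KD APP/PS1. Every APP/PS1 sample was above every WT sample. The log2 fold change was 0.86 (SE 0.11, adjusted p = 3.82e-06, edgeR) in Control, a 1.82-fold rise, and 0.95 (SE 0.12, adjusted p = 4.92e-06, edgeR) in Slc11a2KD, a 1.93-fold rise. The call held in all 22 fits that left out 1 sample, in both comparisons, and within library numbers 18 to 23 (log2 fold change 1.09, adjusted p = 0.0163, edgeR). Of the alternatives run, only a required log2 fold change above 1 removed it. The other anaphylatoxin receptor of the list, C5ar1, did not follow. It was 52.3, 68.8 and 140 CPM at the lowest, median and highest in Control WT and 60.2, 73.3 and 133 CPM in Control APP/PS1, with a log2 fold change of 0.11 (SE 0.23, adjusted p = 0.845, edgeR). In Slc11a2KD WT it was 50.2, 64.7, 82.6, 83.1 and 91.3 CPM and in Slc11a2KD APP/PS1 58.8, 59.9, 60.1, 62.0 and 67.4 CPM, with a log2 fold change of -0.27 (SE 0.25, adjusted p = 0.501, edgeR).

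Of the integrin chains of complement receptor 3, CD11b (Itgam) is also the handle of the cell isolation, since the magnetic beads bound it. Itgam was 267, 318 and 333 CPM at the lowest, median and highest in Control WT and 111, 210 and 246 CPM in Control APP/PS1. These ranges did not overlap. The log2 fold change was -0.65 (SE 0.25, adjusted p = 0.104, edgeR), which did not pass the threshold over all genes. With only the 2 groups in the fit it was -0.64 and passed (adjusted p = 0.0109, edgeR), and it passed with DESeq2 (-0.68, adjusted p = 0.0365), limma voom (-0.65, adjusted p = 0.0241) and library numbers 18 to 23 as a covariate (-0.65, adjusted p = 0.0168, edgeR) as well. Over all alternatives without a fold limit the adjusted p ran from 0.0109 to 0.205. In Slc11a2KD WT it was 148, 192, 264, 283 and 435 CPM and in Slc11a2KD APP/PS1 94.3, 101, 130, 196 and 272 CPM. The log2 fold change was -0.74 (SE 0.28, adjusted p = 0.0707, edgeR), and it passed without Slc11a2KD APP/PS1 0004 (-1.02, adjusted p = 0.00682, edgeR) or Slc11a2KD WT 0022 (-0.88, adjusted p = 0.0204, edgeR). With all 22 samples it passed with DESeq2 (-0.73, adjusted p = 0.0272), limma voom (-0.97, adjusted p = 0.0118), the filter of 10 counts in every sample (-0.74, adjusted p = 0.0424, edgeR) and the length and GC offset (-0.86, adjusted p = 0.0377, edgeR). Over all samples left out in turn the adjusted p ran from 0.00682 to 0.252. Over all alternatives without a fold limit the log2 fold change ran from -1.02 to -0.34, with adjusted p up to 0.652. In GENCODE M39, 3450 of the 5118 exon bases of Itgam, or 67.4%, are shared on the same strand with the readthrough model Gm49368, where reads cannot be assigned to 1 gene. The other 1668 bases, of which 1276 lie in its last exon, belong to Itgam alone. The authors counted on an earlier GENCODE release, in which this overlap was not examined here, and Gm49368 itself had at most 39 counts in a sample.

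Itgb2, the beta chain, did not pass the test in the fit of all 4 groups. It was 521, 561 and 636 CPM at the lowest, median and highest in Control WT and 546, 698 and 788 CPM in Control APP/PS1, with a log2 fold change of 0.28 (SE 0.15, adjusted p = 0.271, edgeR). With only the 2 groups in the fit it was 0.30 and passed (adjusted p = 0.0285, edgeR). It was 432, 545, 565, 605 and 637 CPM in Slc11a2KD WT and 340, 377, 456, 620 and 767 CPM in Slc11a2KD APP/PS1, with a log2 fold change of -0.12 (SE 0.17, adjusted p = 0.685, edgeR). The 3 lowest of these, 0021, 0023 and 0020, had length slopes of -0.376, -0.344 and -0.188, and the highest, 0004, a slope of 0.127. Within the groups, Itgb2 correlated with the length slope at r = 0.826 and Itgam at r = 0.619 over 22 samples, and the part of the slope in these values was not tested.

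**Figure D2:**
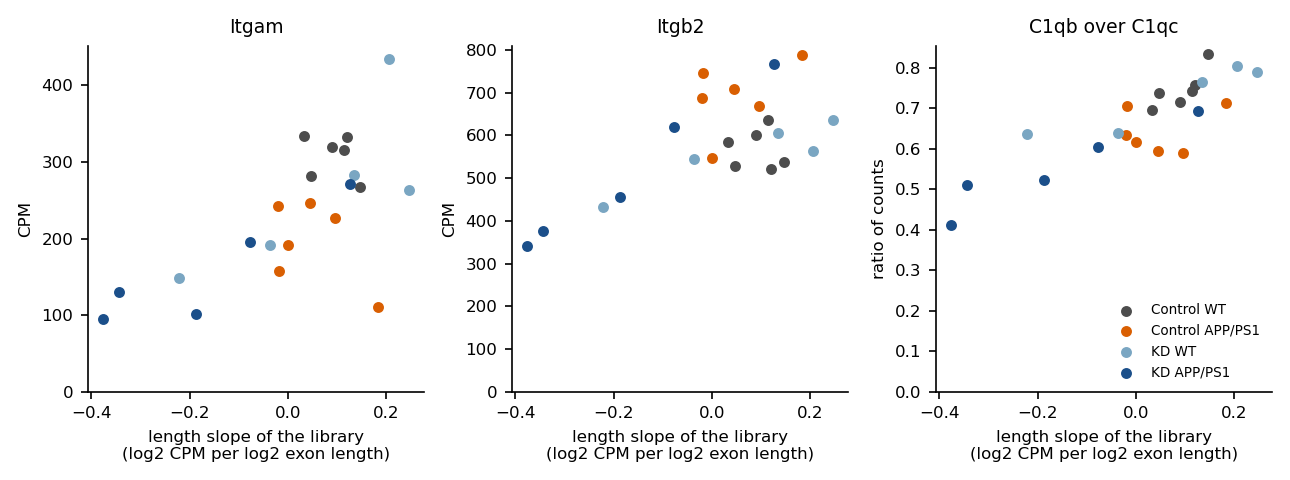
CPM of Itgam (left) and Itgb2 (middle) and counts of C1qb per count of C1qc (right) against the length slope of each library, 1 point per sample and coloured by group. The slope is that of log2 CPM, relative to each gene's mean over the 23 samples, on log2 exon length over 10522 genes. Within Slc11a2KD (KD) APP/PS1, the samples with slopes of -0.376, -0.344 and -0.188 hold the lowest Itgb2 values, 340 to 456 CPM.

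Among the 9 members, 1 was called higher and 1 lower in Control APP/PS1 against Control WT, where 5.99% of the 18759 genes tested were higher and 4.48% lower. In Slc11a2KD APP/PS1 against Slc11a2KD WT, 1 was higher and 2 were lower, against 9.77% and 6.41% of all genes. The median log2 fold change of the members was -0.17 in Control, beside -0.02 over all genes, and -0.12 in Slc11a2KD, beside -0.07. Of all genes called, 42.8% were lower in Control and 39.6% in Slc11a2KD. With total counts in place of TMM these shares were 53.9% and 56.8%, and the median of all genes moved by -0.0843 and -0.166 on the log2 scale. With the length and GC offset 53.5% were lower in Control and 47% in Slc11a2KD. These comparisons share no samples.

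**Figure D3:**
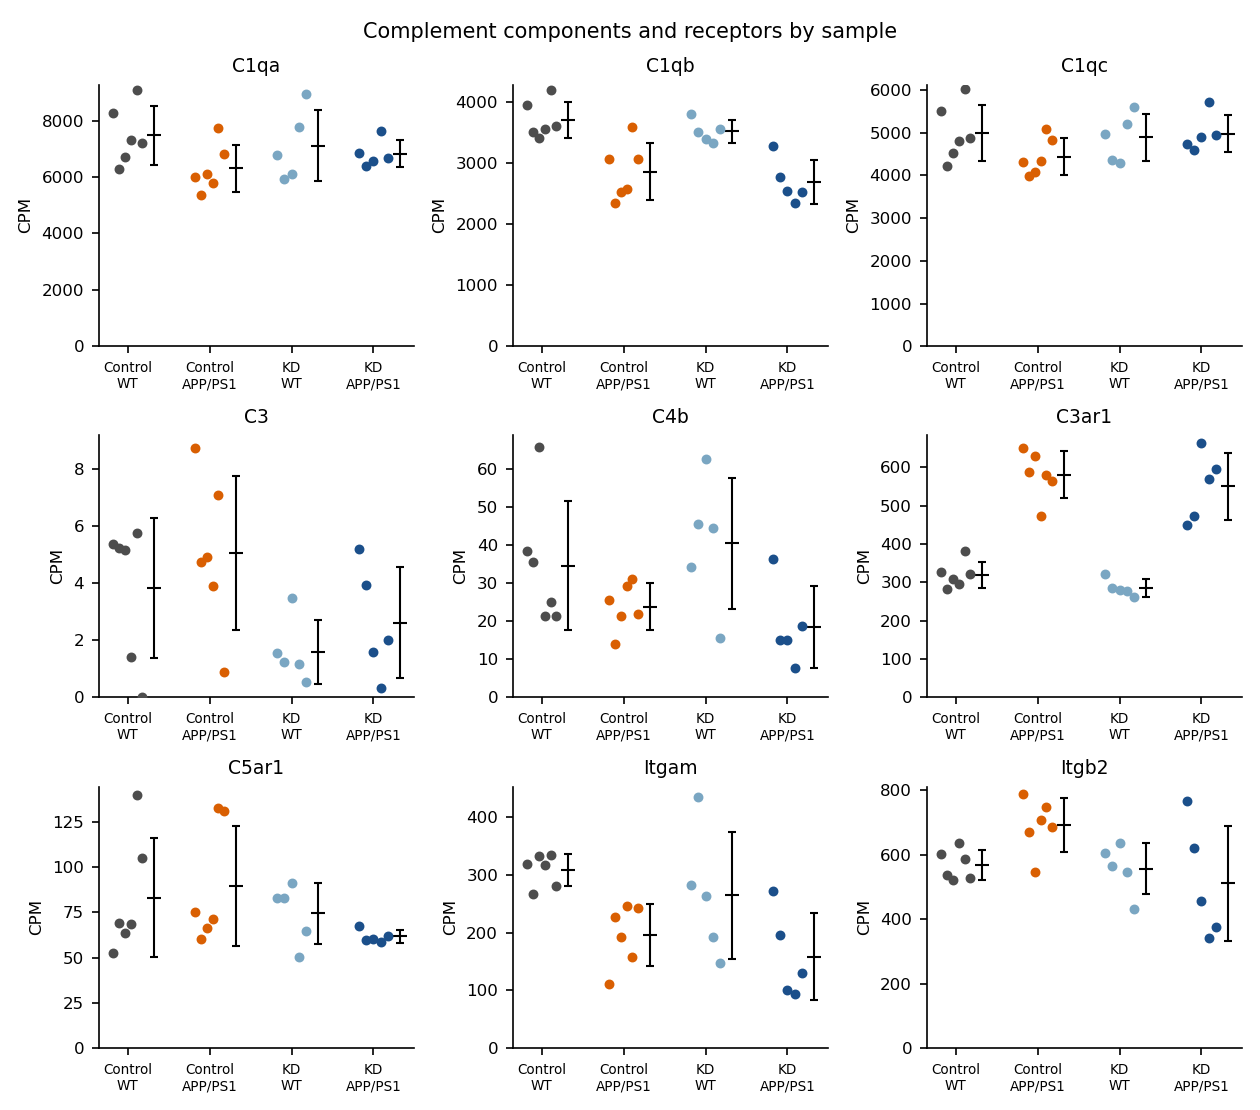
CPM of the 9 members in the 22 samples, 1 point per sample and 1 panel per gene with its own scale from 0, with the mean and SD of each group beside the points (KD, Slc11a2KD). C3ar1 spans 261 to 381 CPM in WT samples and 451 to 663 CPM in APP/PS1 samples, and the 3 C1q panels overlap more.

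**Figure D4:**
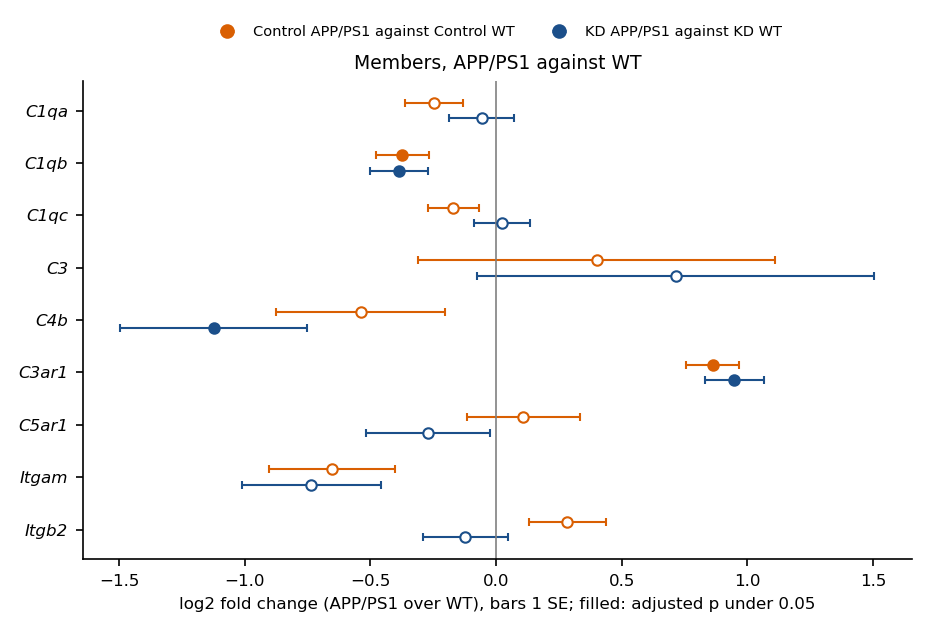
Log2 fold change of the 9 members in APP/PS1 against WT, in Control (orange) and Slc11a2KD (KD, blue), with 1 standard error. Filled points passed an adjusted p of 0.05 and were C1qb and C3ar1 in both comparisons and C4b in Slc11a2KD.

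No member passed the test for knockdown over the 22 samples. With edgeR, 0 of the 9 members were called in Slc11a2KD WT against Control WT or in Slc11a2KD APP/PS1 against Control APP/PS1. The share of all genes called by edgeR was 0% in both. DESeq2 also called 0 members, and its share of all genes is not given here. The study, with DESeq2, reported genes called for knockdown in both genotypes, with more of them in APP/PS1. At an unadjusted p under 0.05 in edgeR, 0 members were found in WT and 2 in APP/PS1, beside 5.92% and 20.6% of all genes. The 2 were Itgb2 (log2 fold change -0.43, SE 0.16, adjusted p = 0.205, edgeR) and C5ar1 (-0.54, SE 0.24, adjusted p = 0.217, edgeR). Itgb2 passed the test when 0004 was left out (-0.63, adjusted p = 0.0202), where 7.34% of all genes were called higher and 9.07% lower, and not in the other 21 fits that left out 1 sample, with adjusted p up to 0.527 (edgeR). Over all alternatives the log2 fold change ran from -0.63 to -0.07 for Itgb2 and from -0.78 to -0.20 for C5ar1. For the C1q chains the log2 fold changes in WT were -0.07 for C1qa (95% interval -0.31 to 0.17), -0.07 for C1qb (-0.29 to 0.14) and -0.03 for C1qc (-0.24 to 0.18). In APP/PS1 they were 0.12 (-0.12 to 0.35), -0.09 (-0.30 to 0.13) and 0.17 (-0.04 to 0.37). C3ar1 was -0.17 (-0.38 to 0.05) in WT and -0.08 (-0.30 to 0.14) in APP/PS1. For C3 the intervals were wide, -2.78 to 0.25 in WT and -2.44 to 0.54 in APP/PS1. The interaction between knockdown and genotype was called for 0 members and 0% of all genes by edgeR, and DESeq2 called 0 members. At an unadjusted p under 0.05 it was found for 0 members and 9.08% of all genes.

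Beyond the members, 27 of 46 listed complement genes were in the table and tested. In Control APP/PS1 against Control WT, 2 were higher and 7 lower, where 5.99% and 4.48% of all genes were called. In Slc11a2KD APP/PS1 against Slc11a2KD WT 1 was higher and 4 lower, against 9.77% and 6.41% of all genes. Their median log2 fold change was -1.22 in Control and -0.78 in Slc11a2KD, beside -0.02 and -0.07 over all genes. These medians include 12 genes with a mean under 1 CPM, and over the other 15 they were -0.75 and -0.63. In the knockdown comparisons 0 of the 27 were called in either genotype by edgeR or DESeq2, with 3 in WT and 7 in APP/PS1 at an unadjusted p under 0.05 in edgeR, beside 5.92% and 20.6% of all genes. The share of all genes that DESeq2 called is not given here.

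Among receptors that passed the test, Itgax, the CD11c chain that pairs with CD18 in complement receptor 4, showed the largest change. It was 19.6, 26.3 and 92.9 CPM at the lowest, median and highest in Control WT and 111, 316 and 530 CPM in Control APP/PS1. It was 12.8 to 17.9 CPM in Slc11a2KD WT and 95.9 to 233 CPM in Slc11a2KD APP/PS1. The groups did not overlap, and the log2 fold changes were 3.10 (SE 0.42, adjusted p = 1.76e-05, edgeR) and 3.39 (SE 0.47, adjusted p = 2.74e-05, edgeR). Within library numbers 18 to 23 it was 3.34 (adjusted p = 0.0024, edgeR). CPM of Itgax per CPM of Itgam was 0.0699 to 0.279 in Control WT and 0.479 to 3.86 in Control APP/PS1, and 0.0411 to 0.0932 in Slc11a2KD WT and 0.736 to 1.82 in Slc11a2KD APP/PS1. Itgam may be undercounted for the shared exon bases given above, so these ratios do not rank Itgax against Itgam. C5ar2, the second receptor of C5a, fell in both comparisons, by 0.62 on the log2 scale in Control (adjusted p = 0.0231, edgeR) and by 0.96 in Slc11a2KD (adjusted p = 0.00164, edgeR). The Control call was lost without 0009, 0011 or 0012 (largest adjusted p = 0.0587). Cd93, a lectin-like receptor once taken for a C1q receptor, fell by 1.11 and 1.52 (adjusted p = 0.00825 and 0.00131, edgeR), from levels of at most 15.9 CPM. Within library numbers 18 to 23 neither call was kept in Slc11a2KD, with C5ar2 at -0.92 (adjusted p = 0.19) and Cd93 at -1.40 (adjusted p = 0.107, edgeR).

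Of the initiating and alternative pathway genes, Masp1, a protease of the lectin pathway, rose in Control by 1.97 on the log2 scale (SE 0.38, adjusted p = 0.0009, edgeR), from 3.57 to 12.9 CPM in Control WT to 23.2 to 47.0 CPM in Control APP/PS1. In Slc11a2KD its log2 fold change was 0.79 (adjusted p = 0.178, edgeR), and it passed with library numbers 18 to 23 as a covariate (1.32, adjusted p = 0.0243, edgeR) or with the length and GC offset (1.02, adjusted p = 0.0232, edgeR). With each sample left out it ran from 0.49 to 1.04 (adjusted p from 0.111 to 0.406, edgeR). Fcna, ficolin A of the lectin pathway, fell by 1.28 in Control (adjusted p = 0.00142, edgeR) and by 1.49 in Slc11a2KD (adjusted p = 0.000832, edgeR), where it was -1.69 within library numbers 18 to 23 (adjusted p = 0.0503, edgeR). Cfp, properdin, which stabilizes the alternative pathway convertase, fell by 1.92 in Control (adjusted p = 0.000201, edgeR), from 9.69 to 23.4 CPM down to 2.78 to 6.46 CPM, and its log2 fold change in Slc11a2KD was -0.63 (adjusted p = 0.207, edgeR). The latter passed without Slc11a2KD APP/PS1 0023 (-1.13, adjusted p = 0.0153, edgeR), with limma voom (-0.93, adjusted p = 0.0412) and with the length and GC offset (-1.04, adjusted p = 0.0216, edgeR). Sample 0023 had Cfp at 24.2 CPM against 4.52 to 9.54 CPM in the other 4 samples of its group. Its lymphocyte markers (6 genes) summed to 153 CPM against 0.552 to 3.62 CPM in those samples, and its monocyte and neutrophil markers to 171 CPM against 44.6 to 73.7 CPM, and their part in this value was not tested. Of the regulators, Cd55 fell by 2.47 (adjusted p = 0.00497, edgeR), Vtn, vitronectin, by 1.67 (adjusted p = 0.00574, edgeR) and Clu, clusterin, by 1.48 (adjusted p = 0.0444, edgeR) in Control. In Slc11a2KD these did not pass, with Cd55 at -1.05 (adjusted p = 0.235), Vtn at -0.71 (adjusted p = 0.252) and Clu at -0.78 (adjusted p = 0.312, edgeR). The Clu call was lost in 10 of the 22 fits that left out 1 sample (adjusted p up to 0.240, without Control WT 0012). Csmd3 was -0.40 in Control (adjusted p = 0.308, edgeR) and fell by 1.00 in Slc11a2KD (adjusted p = 0.00974, edgeR). The latter call was lost with library numbers 18 to 23 as a covariate (-0.68, adjusted p = 0.105, edgeR), within those libraries (-0.48, adjusted p = 0.401, edgeR) and with the length and GC offset (-0.32, adjusted p = 0.318, edgeR).

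Some lists of other cell types were also lower in APP/PS1. Summed markers of border-associated macrophages (7 of 7 genes in the table) were 221 to 428 CPM in Control WT against 91.8 to 197 CPM in Control APP/PS1, and 258 to 511 CPM in Slc11a2KD WT against 131 to 194 CPM in Slc11a2KD APP/PS1. Endothelial and mural markers (7 genes) were 161 to 382 CPM against 106 to 143 CPM in Control and 143 to 294 CPM against 87.8 to 172 CPM in Slc11a2KD. Monocyte and neutrophil markers (7 genes) were 77.9 to 286 CPM against 23.8 to 84.8 CPM in Control and 82.3 to 427 CPM against 44.6 to 171 CPM in Slc11a2KD. Oligodendrocyte markers (7 genes) were 738 to 2806 CPM against 365 to 977 CPM in Control and 1008 to 3638 CPM against 555 to 1272 CPM in Slc11a2KD. Astrocyte markers (7 genes) overlapped widely, at 120 to 702 CPM against 147 to 582 CPM in Control and 123 to 491 CPM against 102 to 672 CPM in Slc11a2KD. Of these, Gfap, an astrocyte filament gene, was higher in APP/PS1 with no overlap, at 2.05 to 4.37 CPM against 26.0 to 89.7 CPM in Control and 2.17 to 9.27 CPM against 31.6 to 109.6 CPM in Slc11a2KD. Aqp4, another gene of that list, was at most 1.40 CPM in any sample, and its ranges overlapped in both comparisons. The part of astrocytes in the higher levels of Masp1 and C3ar1 was not tested. Choroid plexus markers were 10.4 to 765 CPM in Slc11a2KD WT and 2.30 to 481 CPM in Slc11a2KD APP/PS1. Vtn is itself in the endothelial and mural list. The part of these cells in the falls of Cfp, Fcna, Cd93, Cd55 and Vtn was not tested, and in bulk RNA fewer cells of a type and less RNA per cell cannot be told apart. Without Control WT 0012 and 0015, the samples with choroid plexus markers, an alternative added after the data were seen, Clu was -0.18 (adjusted p = 0.848, edgeR), Vtn -1.15 (adjusted p = 0.0849, edgeR) and C5ar2 -0.56 (adjusted p = 0.103, edgeR), and 4 rather than 7 of the 27 were lower in Control.

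**Figure D5:**
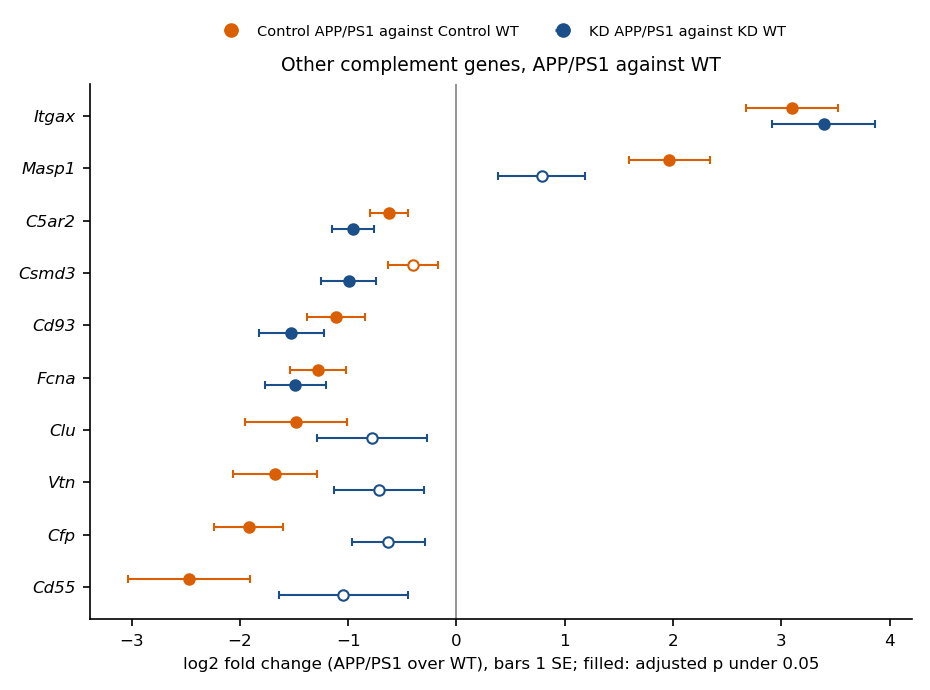
Log2 fold change in APP/PS1 against WT of the 10 other complement genes named in the text, in Control (orange) and Slc11a2KD (KD, blue), with 1 standard error. Filled points passed an adjusted p of 0.05, and Itgax stands at 3.10 and 3.39.

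The genes whose levels most resembled the members around the group means were listed over 7889 genes with a mean of at least 10 CPM in 22 samples, as a description. For the mean of the C1q chains they were Mmd (r = 0.789), Pxdc1 (r = 0.738), Fcgr4 (r = 0.736), Ccl12 (r = 0.728) and Cd81 (r = 0.727). For C3 they were Pgap1 (r = 0.891), Srrt (r = 0.878), Smad5 (r = 0.852), Ddb1 (r = 0.806) and Mta3 (r = 0.804). For C4b they were Snx1 (r = 0.859), Irf2bp2 (r = 0.839), Pml (r = 0.837), Tgfbi (r = 0.826) and Atg2a (r = 0.811). For the mean of Itgam and Itgb2 they were Lag3 (r = 0.885), Inpp4b (r = 0.873), Pabpc1 (r = 0.858), Pip5k1c (r = 0.850) and Nucb1 (r = 0.850). All samples share depth and length slope, which also correlated with C1qa (r = -0.621) and C1qc (r = -0.639).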

How the data were processed

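The authors trimmed reads with Trim Galore 0.6.7 and Cutadapt, aligned them to mm39 with STAR and took read counts per gene from STAR itself. They deposited whole-number counts that were not normalized, for 18876 genes in 23 samples, each with at least 16 counts in all. A second deposited table, with counts divided by DESeq2 size factors, was not used here. Control APP/PS1 0010 was left out, following the study's removal of it as an outlier. Of these genes, 18759 reached 5 counts in 3 or more samples, and they were tested with edgeR 4.0.16 (TMM, quasi-likelihood test, all 4 groups in 1 fit) under R 4.3.3, with Benjamini-Hochberg adjustment over all genes and a threshold of 0.05. A standard error is the log2 fold change divided by the square root of F, and 95% intervals use the normal quantile. CPM values (counts relative to the scaled library size) were scaled by TMM. C1q ratios were compared by exact two-sided permutation tests. Alternatives were DESeq2 1.42.0, limma voom 3.58.1 with sample weights, other scalings and filters, other sets of samples, library numbers 18 to 23 as a covariate and, added after the data were seen, an offset for length and GC content (splines with 4 degrees of freedom) and the omission of Control WT 0012 and 0015. Scripts were tested on simulated data. Positions and promoters came from GENCODE M39 on GRCm39. The members and gene lists were chosen with earlier results of these data known. 1 gene that had been listed is not reported here. Named beside the members were listed complement genes with a mean of at least 1 CPM that passed in any comparison (at most 12, largest change first), and the 5 genes most like each of 4 profiles. The strandedness of the counting is not given in the sources used here, so reads of members and of antisense RNAs that overlap C1qb, C1qc, C3 and C4b may not be told apart.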

Additional observations from a re-analysis of the deposited data

Results flagged for a closer look

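The C1q share of all counts was 1.52% in Slc11a2KD APP/PS1 0004, apart from the other 4 samples of its group, which lay between 1.27% and 1.33%. The gap to the nearest sample was 0.744 of the range of the group. Of 48 groups of values examined in this way, over 9 members and 3 C1q measures in 4 groups, it was the only 1 to stand apart by Dixon's criterion, and chance gives about 1 in 20, or 2.4 of 48. The same sample had a length slope of 0.127, against -0.376 to -0.0769 in the other 4, and its part in the difference was not tested.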

How the results depend on the processing

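The rise of C3ar1 kept its call under each alternative except a required log2 fold change above 1, which left 0 members higher in both comparisons of APP/PS1 with WT, 0 lower in Control and 1 lower (C4b) in Slc11a2KD, with 2 of the wider list lower there. The number of members lower in Control was 2 with DESeq2, with only the 2 groups in the fit or with library numbers 18 to 23 as a covariate, and 3 with limma voom, with total counts in place of TMM or with the length and GC offset. It was 0 without Control WT 0012 and 0015, where 4 of the wider list were lower, and 0 to 1 with each sample left out in turn. With only the 2 groups, 2 members were higher in Control. The number lower in Slc11a2KD was 0 with the 2 groups alone, with the covariate or within library numbers 18 to 23, 4 with the length and GC offset (3 of the wider list then being higher), and 0 to 3 with each sample left out. The wider list then had 1 to 2 higher genes in Slc11a2KD, and 0 to 2 higher in Slc11a2KD APP/PS1 against Control APP/PS1, where members lower were 0 to 1. Without Slc11a2KD APP/PS1 0004, 1 member (Itgb2) was lower and 2 genes of the wider list were higher in that comparison, beside 9.07% of all genes lower and 7.34% higher. Over all genes, 841 were lower in Control with TMM, 1077 with total counts and 1224 with the length and GC offset. In Slc11a2KD they were 1202, 1769 and 1347. For the remaining settings the share of all genes called is not given here, so the counts of members cannot be set against it.

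The following log2 fold changes changed sign, and none was past the threshold in either fit. For APP/PS1 in Control, C3 was -0.0918 without 0012 and 0015 and C5ar1 -0.0384 to 0.32 with each sample left out. For APP/PS1 in Slc11a2KD, C1qa was -0.12 to 0.0405 and C1qc -0.0327 to 0.0813 with each sample left out. C1qc was -0.14 with total counts, -0.0443 with the covariate, -0.11 within library numbers 18 to 23 and -0.21 with the length and GC offset, C5ar1 was 0.0595 within those libraries, and Itgb2 was 0.0489 with the covariate. For Slc11a2KD against Control in WT, C1qc was -0.0984 to 0.0308, C5ar1 -0.26 to 0.0537 and Itgb2 -0.0817 to 0.0364 with each sample left out. C5ar1 was 0.0561 and Itgb2 0.0112 with limma voom, Itgam 0.10 and Itgb2 0.17 with the covariate, and C4b -0.0278 without 0012 and 0015. In APP/PS1 with the covariate C1qa was -0.0738, C1qb 0.0522, C4b 0.29 and Itgam 0.42, and with the length and GC offset C1qa was -0.13. The cause was not tested.

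With 0010 kept, the C1qb to C1qc log2 ratio (-0.27) and the C1q share (-0.37 points) passed in Control, and the share differed by 0.00574 points between the APP/PS1 groups. With each sample left out, the C1qa to C1qc log2 ratio in Control was -0.10 to -0.0628 and the C1qb to C1qc log2 ratio -0.25 to -0.19, and in Slc11a2KD -0.51 to -0.32. It was -0.34 to -0.15 between the APP/PS1 groups and -0.084 to 0.00105 between the WT groups. The share was -0.40 to -0.30 points in Control, -0.31 to -0.24 in Slc11a2KD and -0.0551 to 0.0425 between the APP/PS1 groups.

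No paired analysis was possible because the replicate numbers are unique to each sample. C3, with a count of 0 in 1 sample, was not tested under the filter of 10 counts in every sample. Its low counts limit what these samples can show, while the C1q chains had at least 78389 counts per sample.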
